A study of Saccharomyces cerevisiae with 4 samples.

Results

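HSP30, its homologs MRH1 and YRO2, the plasma membrane proton pump genes PMA1 and PMA2, and the pump proteolipid genes PMP1 and PMP2 make up 7 of the 7126 features in the count files. HSP30 was chosen by its summed read counts, as the gene with the largest ratio of 39 °C over 30 °C in these data, and the other genes were added as its homologs and as the pump it regulates. The values that chose HSP30 are therefore given as a description and support nothing. All 7 genes had at least 20 reads over both temperatures and so passed the filter on low counts.

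Pma1 is the P-type ATPase that pumps protons out of the yeast cell across the plasma membrane. It sets the membrane potential and the proton gradient that drive nutrient uptake, and it is a major consumer of cellular ATP. Hsp30 is a plasma membrane protein with several membrane spans that is made during heat shock and other stress, and it is known to limit the stress stimulation of the pump. Mrh1 and Yro2 are related membrane proteins of less defined function, Pma2 is a minor isoform of the pump, and Pmp1 and Pmp2 are very small membrane proteins that associate with Pma1 and regulate it.

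The RNA was what crosslinked to the RNA-binding protein Mip6 of Saccharomyces cerevisiae in PAR-CLIP, where 4-thiouracil taken up by the cells lets ultraviolet light join RNA to bound protein. The heat-stressed group was a Mip6-HTB strain kept for 10 min at 30 °C and then 20 min at 39 °C, and its 4-thiouracil was present for 25 min before the shift and for 20 min after it. The unstressed group was the same strain kept for 30 min at 30 °C, with 4-thiouracil for 45 min at that temperature. All cells grew in synthetic medium with glucose, carried the tag by which Mip6 was purified on nickel and streptavidin beads, and were irradiated at 365 nm for 15 min. The strain background beyond the tag is not given in the labels. For each temperature the labels name 1 sample per strand, and both strands belong to 1 library, so they are no replicates.

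The reads assigned to features numbered 6950540 at 39 °C and 11657228 at 30 °C, strands summed. Since 1 library stands for each temperature, the temperatures were compared without a test or a p-value. The 95% intervals cover counting error only, treat reads as independent molecules and leave out the difference between cultures. No input RNA or untagged control is among the samples, so a higher read count can come from more mRNA or from more crosslinking per mRNA, and the 2 cannot be told apart. Over the 6554 features with at least 20 reads the median log2 ratio of 39 °C over 30 °C was 0.01, with quartiles at -0.29 and 0.31. The ratio was taken on CPM, which divides each count by the total of its library and puts libraries of unequal depth on 1 scale.

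The HSP30 family differed widely among its members. HSP30 was the highest of the 3 genes at 39 °C and the lowest at 30 °C, YRO2 was more than 2-fold higher at 39 °C, and MRH1 was close to level. In RPKM, which divides CPM by the coding length in kilobases, HSP30 stood at 1778.2 at 39 °C, against 70.2 at 30 °C. By that measure it ranked 50 of the 6554 features at 39 °C and 3724 at 30 °C.

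HSP30 (YCR021C) lies on the minus strand of chromosome III at 156109 to 157107 in build R64, and its 999 bases are coding sequence. Its own strand held 11855 reads at 39 °C, against 762 at 30 °C, and the opposite strand held 492 reads at 39 °C, against 56 at 30 °C. Summed over strands this is 1776.4 CPM at 39 °C, against 70.2 CPM at 30 °C, which gives a ratio of 25.3 and a log2 ratio of 4.66 (95% interval 4.56 to 4.77). The own-strand log2 ratio was 4.69 (4.58 to 4.80). As the gene of the largest ratio it was followed by BTN2, a gene of protein quality control, with a summed log2 ratio of 3.63 (3.54 to 3.72). By own-strand log2 ratio over the 2 libraries, the protein-coding genes nearest to HSP30 were BTN2, at a distance of 1.05, YDL114W at 1.48, YPR195C at 1.62 and DPA10 at 1.81. The last 3 rest on few reads, with 46 to 166 own-strand reads at 39 °C and 10 to 30 at 30 °C.

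YRO2 (YBR054W) lies on the plus strand of chromosome II at 343101 to 344135. It had 4678 own-strand and 207 opposite-strand reads at 39 °C, against 3036 and 121 at 30 °C. Its summed level was 702.8 CPM at 39 °C, against 270.8 CPM at 30 °C, which gives a ratio of 2.60 and a log2 ratio of 1.38 (1.31 to 1.44). It ranked 99 of 6554 features by this ratio. HSP30 and YRO2 were thus the 2 of 7 genes at least 2-fold higher at 39 °C, and 0 of 7 were 2-fold lower. Among all 6554 features, 3.86% were at least 2-fold higher and 2.14% at least 2-fold lower. With own-strand reads the same 2 genes were past 2-fold and none was 2-fold lower, where 4.41% and 2.66% of all features with 20 own-strand reads were. Since the genes were assembled around the largest ratio, nothing is read from the count.

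MRH1 (YDR033W) lies on the plus strand of chromosome IV at 508147 to 509109. It had 2704 own-strand reads at 39 °C, against 4124 at 30 °C, and 104 opposite-strand reads at 39 °C, against 163 at 30 °C. Its level was 404.0 CPM at 39 °C, against 367.8 CPM at 30 °C, with a log2 ratio of 0.14 (0.07 to 0.20), which lies well inside the quartiles of all features. The ratio of YRO2 exceeded that of MRH1 by 1.24 on the log2 scale (1.15 to 1.33), and that of HSP30 exceeded that of YRO2 by 3.29 (3.17 to 3.41). These differences between genes of the same libraries do not depend on how the libraries were scaled.

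As shares of the family's reads, which the HSP30 counts that chose the gene largely fix, HSP30 held 61.6% of the family's 20040 reads at 39 °C (95% Clopper-Pearson interval 60.9 to 62.3), against 9.90% of 8262 reads at 30 °C (9.26 to 10.6). YRO2 held 24.4% at 39 °C and 38.2% at 30 °C, and MRH1 14.0% at 39 °C and 51.9% at 30 °C. Neither YRO2 nor MRH1 had a lower CPM at 39 °C than at 30 °C, so their lower shares come from a larger family total. That total grew with HSP30 and, in the case of the MRH1 share, with YRO2 as well. The 3 genes are of like length, so these shares are not set by length. Together they had 2883.2 CPM at 39 °C, against 708.7 CPM at 30 °C, with a log2 ratio of 2.02 (1.99 to 2.06), and without HSP30 the log2 ratio was 0.79 (0.75 to 0.84).

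**Figure D1:**
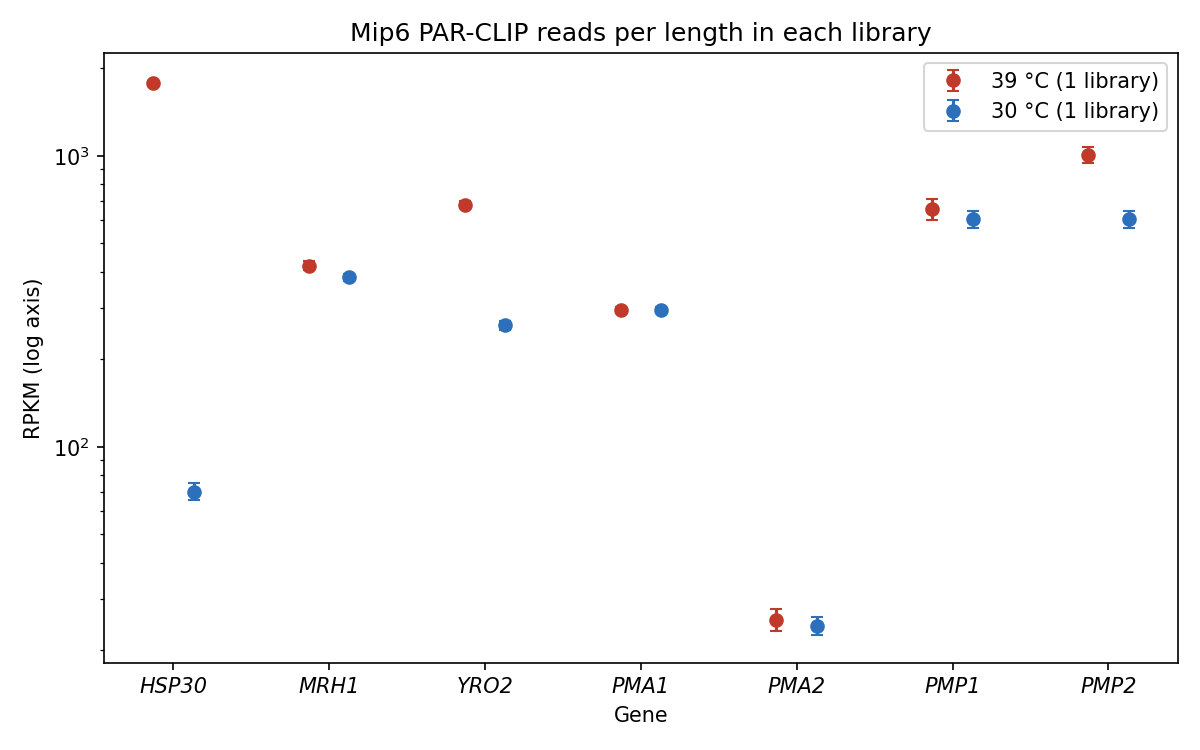
RPKM by coding length (log axis) for the 7 genes, in the 39 °C library (red, left of each pair) and the 30 °C library (blue, right), with 95% Poisson intervals of the counts as bars. HSP30 is at 1778.2 at 39 °C and 70.2 at 30 °C, while PMA1 is at 294.8 at 39 °C and 295.9 at 30 °C and PMA2 lies lowest at 39 °C and at 30 °C.

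PMA1, the gene of the pump itself, had almost the same share of reads in the 39 °C and the 30 °C library. The gene (YGL008C) lies on the minus strand of chromosome VII at 479910 to 482666. Its own strand held 5426 reads at 39 °C, against 9246 at 30 °C, and the opposite strand 223 at 39 °C, against 263 at 30 °C. The level was 812.7 CPM at 39 °C, against 815.7 CPM at 30 °C, with a log2 ratio of -0.01 (-0.05 to 0.04), so counting error leaves room for a difference of at most 0.05 on the log2 scale in either direction between these libraries. The difference between cultures, which is not in this interval, was not measured. The ratio of HSP30 exceeded that of PMA1 by 4.67 on the log2 scale (4.55 to 4.78).

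PMA2, the minor pump isoform (YPL036W, plus strand of chromosome XVI, 482843 to 485686), had few reads for its length. It had 356 own-strand reads at 39 °C, against 577 at 30 °C, and 148 opposite-strand reads at 39 °C, against 227 at 30 °C. Its summed level was 72.5 CPM at 39 °C, against 69.0 CPM at 30 °C, with a log2 ratio of 0.07 (-0.09 to 0.23). In RPKM it stood at 25.5 at 39 °C (95% Poisson interval 23.3 to 27.8) and 24.3 at 30 °C (22.6 to 26.0), the lowest of the 7 genes in each library. Of the reads on the pump pair PMA2 held 8.19% at 39 °C (7.52 to 8.90) and 7.80% at 30 °C (7.29 to 8.33), intervals that overlap. Pma1 and Pma2 are close paralogs, and the sources used here do not say how reads matching more than 1 place were treated. The count files list 0 reads as not uniquely aligned, and the split of reads between PMA1 and PMA2 is uncertain.

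The opposite strand carried a larger share of the PMA2 reads than of a typical feature. That share was 29.4% at 39 °C (25.4 to 33.6) and 28.2% at 30 °C (25.1 to 31.5), against a median over features of 8.53% at 39 °C and 6.30% at 30 °C. PMP1 had 13.1% at 39 °C and 10.6% at 30 °C. The other 5 genes had between 3.70% and 5.75% at 39 °C and between 2.77% and 6.85% at 30 °C. The opposite-strand reads of HSP30 had a log2 ratio of 3.89 (3.50 to 4.32), below the own-strand ratio, and those of YRO2 1.50 (1.17 to 1.84). For PMA1 they had 0.53 (0.26 to 0.79), while the own strand had -0.04 (-0.09 to 0.01).

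**Figure D2:**
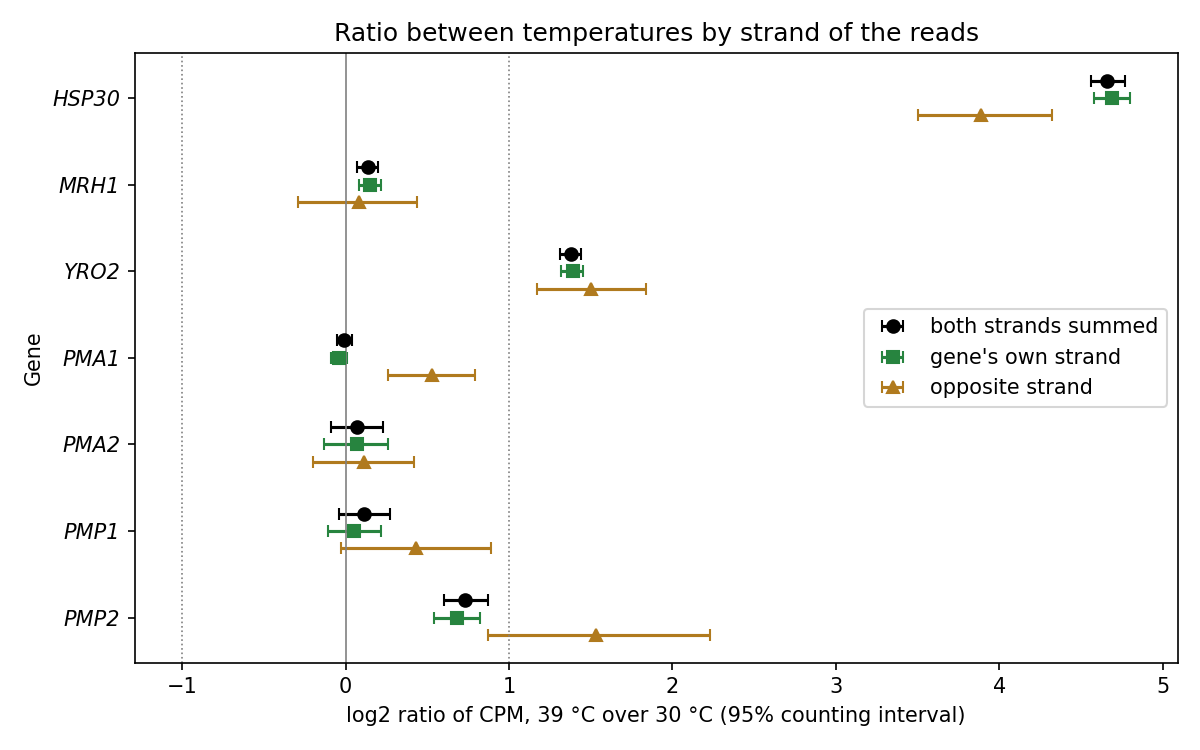
Log2 ratio of CPM, 39 °C over 30 °C, for each of the 7 genes from both strands summed (circles), the gene's own strand (squares) and the opposite strand (triangles), with 95% counting intervals as bars and dotted lines at 2-fold. Summed and own-strand ratios lie close together in every gene, and the opposite-strand ratio of PMA1 (0.53) and of PMP2 (1.53) lies above the own-strand one.

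The proteolipid genes parted from each other at 39 °C. PMP1 (YCR024C-A, minus strand of chromosome III, 162945 to 163067) had 486 own-strand reads at 39 °C, against 776 at 30 °C, and 73 opposite-strand reads at 39 °C, against 92 at 30 °C. Its summed level was 80.4 CPM at 39 °C, against 74.5 CPM at 30 °C, with a log2 ratio of 0.11 (-0.04 to 0.27). PMP2 (YEL017C-A, minus strand of chromosome V, 122798 to 122929) had 869 own-strand reads at 39 °C, against 899 at 30 °C, and 53 opposite-strand reads at 39 °C, against 31 at 30 °C. Its level was 132.7 CPM at 39 °C, against 79.8 CPM at 30 °C, which gives a ratio of 1.66 and a log2 ratio of 0.73 (0.60 to 0.87), under 2-fold. It ranked 479 of the 6554 features.

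The ratio of PMP2 exceeded that of PMP1 by 0.62 on the log2 scale (0.42 to 0.82) and that of PMA1 by 0.74 (0.60 to 0.88). PMP2 held 62.3% of the reads on the proteolipid pair at 39 °C (59.7 to 64.7), against 51.7% at 30 °C (49.4 to 54.1). The pair together had 213.1 CPM at 39 °C, against 154.2 CPM at 30 °C, with a log2 ratio of 0.47 (0.37 to 0.57). The sequences of PMP1 and PMP2 were not compared here, and how reads matching several places were treated is not stated. The split of reads between PMP1 and PMP2 is therefore uncertain, which the counting intervals leave out. The features are 123 and 132 bases long, so a read that reaches past an end weighs more in their RPKM than in that of a long gene.

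In RPKM, the order of levels at 39 °C ran from HSP30 (1778.2) over PMP2 (1004.9), YRO2 (679.1), PMP1 (653.9), MRH1 (419.5) and PMA1 (294.8) to PMA2 (25.5). YRO2 (660.1 to 698.4) and PMP1 (600.8 to 710.4) had overlapping counting intervals, and the other neighbours in this order did not. At 30 °C the order was PMP1 (605.4), PMP2 (604.4), MRH1 (381.9), PMA1 (295.9), YRO2 (261.7), HSP30 (70.2) and PMA2 (24.3), with only PMP1 and PMP2 overlapping. These levels count reads of both strands.

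In the authors' deposited table HSP30, YRO2 and PMP2 are called up and the other 4 genes flat. Of the 6918 features with a value there, 3.05% are called up and 5.12% down. In the authors' deposited table the log2 ratio runs as 30 °C over 39 °C, and stands at -4.78 for HSP30, -1.41 for YRO2 and -0.77 for PMP2. For MRH1, PMP1, PMA2 and PMA1 the authors' deposited table gives -0.17, -0.13, -0.06 and -0.03. Its probability score was 1.000 for HSP30, 0.970 for YRO2, 0.915 for PMP2 and from 0.097 to 0.658 for the others.

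**Figure D3:**
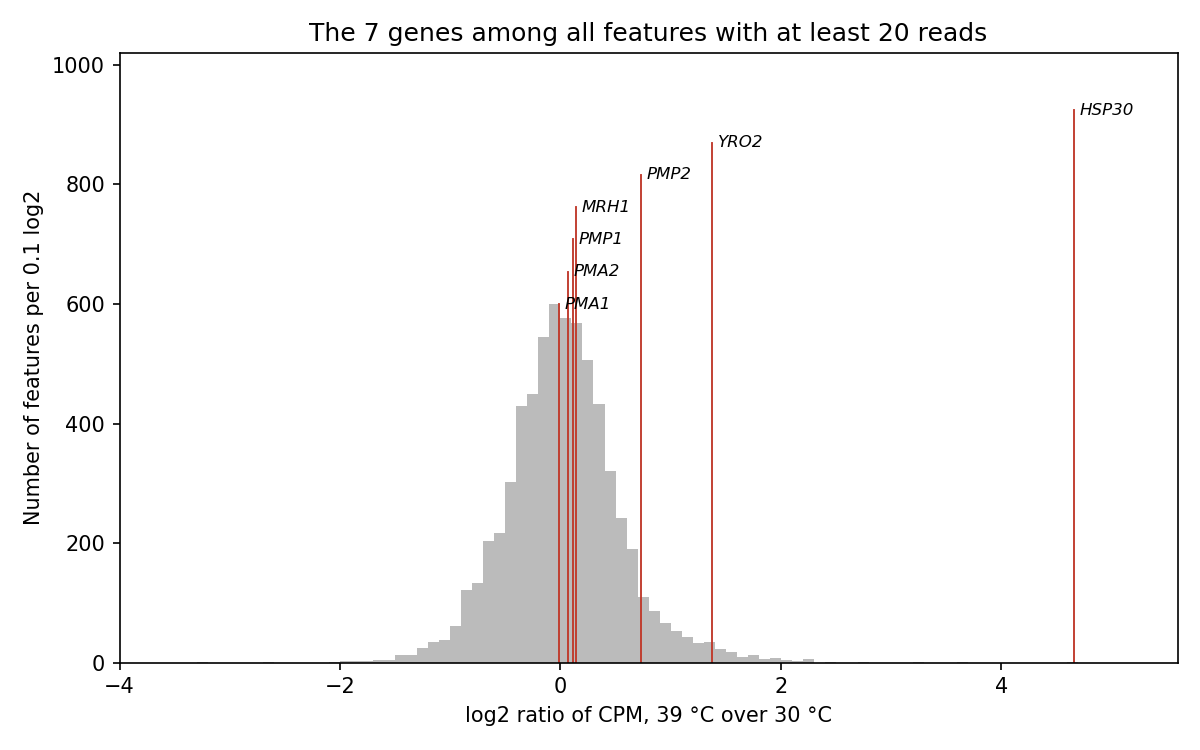
Distribution of the log2 ratio of CPM, 39 °C over 30 °C, over the 6554 features with at least 20 reads (grey bars, number of features per 0.1), with a red line at each of the 7 genes. PMA1, PMA2, PMP1 and MRH1 lie near the middle, PMP2 (0.73) and YRO2 (1.38) in the upper tail and HSP30 (4.66) apart from the rest.

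Around these genes, 10 lists of 90 other genes of proton pumping and the plasma membrane were measured, all 90 with at least 20 reads. At least 2-fold higher at 39 °C were 2 of 90, and 0 were 2-fold lower, against 3.86% and 2.14% of all features. The median log2 ratio over the 90 genes was 0.10, against 0.01 over all features.

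Most genes of Pma1 delivery lay below the median of all features and the genes of the kinase list above it. Some of these genes had counting intervals that hold that median. Of the 7 genes of Pma1 delivery and quality control, 6 lay below it and 1 above, with a median log2 ratio of -0.06, a range of -0.60 to 0.14 and none past 2-fold. EXP1, which helps Pma1 leave the endoplasmic reticulum, had 269.5 CPM at 39 °C, against 408.7 CPM at 30 °C, with a log2 ratio of -0.60 (-0.68 to -0.52). SEC24, a cargo subunit of the COPII vesicle coat, had -0.23 (-0.32 to -0.15). The 6 genes of the kinase list, which holds the Pma1-activating kinases Ptk2 and Hrk1 and related or membrane-bound kinases, all lay above it, with a median of 0.20, a range of 0.09 to 1.07 and 1 past 2-fold. That gene was HRK1, with 211.2 CPM at 39 °C, against 100.3 CPM at 30 °C, with a log2 ratio of 1.07 (0.96 to 1.19). Reads of the opposite strand made up 42.2% of the HRK1 reads at 39 °C and 22.3% at 30 °C, and with own-strand reads the log2 ratio was 0.63 (0.49 to 0.77), under 2-fold. PTK1, named after its values were seen, had 86.7% of its reads at 39 °C and 87.3% at 30 °C on the opposite strand. Its log2 ratio was 0.09 (-0.02 to 0.21) from both strands and 0.15 (-0.17 to 0.46) from its own strand. With own-strand reads the median of the kinase list was 0.17. PTK2 had 0.30 (0.20 to 0.40) and SKY1, an SR protein kinase, 0.22 (0.14 to 0.29), from both strands. Of the 3 activators of PMA1 transcription, which act on the gene and not on the pump, 1 lay above the median of all features and 2 below, and GCR1 had 0.20 (0.09 to 0.30) and RAP1 -0.41 (-0.53 to -0.30).

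Most genes of the vacuolar proton pump, which acidifies the vacuole, had fewer reads per library total at 39 °C. Of 15 V-ATPase subunit genes, 14 lay below the median of all features and STV1, the subunit isoform of the Golgi and endosomes, named after its value was seen, above it, with 0 past 2-fold in either direction. Over all 15 the median log2 ratio was -0.47 and the range -0.86 to 0.12. VMA1, the catalytic subunit, had 620.5 CPM at 39 °C, against 818.4 CPM at 30 °C, with a log2 ratio of -0.40 (-0.45 to -0.35). VPH1, the membrane subunit of the vacuolar form, had -0.17 (-0.22 to -0.11). Of the 7 V-ATPase assembly genes 5 lay below the median of all features and 2 above, with a median of -0.33, and with VOA1 at -0.33 (-0.41 to -0.24) and VMA12 at -0.20 (-0.29 to -0.12). The 2 above, named after their values were seen, were RAV1 with 0.29 (0.16 to 0.41) and RAV2 with 0.27 (0.13 to 0.41), whose products help the pump reassemble.

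The 14 other P-type ATPase genes, most of which move calcium, sodium, metals or lipids, had a median log2 ratio of 0.30. Of them 13 lay above the median of all features and none was past 2-fold. PMC1, a vacuolar calcium pump, had 0.16 (0.09 to 0.24) and SPF1, an ATPase of the endoplasmic reticulum, 0.34 (0.25 to 0.42). The neighbouring ENA1, ENA2 and ENA5 genes are close copies of each other, so their separate counts are uncertain. Of the 12 potassium and sodium transport genes 8 lay above the median of all features and 4 below, with a median of 0.07 and a range of -0.20 to 0.70. The 2 with most reads were the sodium and proton antiporter gene NHA1 at -0.02 (-0.11 to 0.07) and the phosphatase gene PPZ1 at -0.09 (-0.19 to 0.01). The highest, picked out after their values were seen, were the cation and proton exchanger genes NHX1 with 0.70 (0.58 to 0.83) and KHA1 with 0.63 (0.51 to 0.75). Of the NHX1 reads 43.2% at 39 °C and 33.8% at 30 °C lay on the opposite strand, and the log2 ratio of its own-strand reads was 0.50. Of the 4 small membrane proteins of the SNA family PMP3 had 0.34 (0.22 to 0.46) and SNA3 -0.10 (-0.28 to 0.07), and the list had 2 genes on each side and a median of 0.12. With own-strand reads the median of this list was -0.10. SNA4, named after its values were seen, had 0.74 from both strands and -0.02 (-0.53 to 0.47) from its own strand. Of its reads 79.1% at 39 °C and 64.2% at 30 °C lay on the opposite strand.

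The 8 weak acid response genes all lay above the median of all features, with a median log2 ratio of 0.60, a range of 0.29 to 0.86 and none past 2-fold. PDR12, which exports weak acid anions across the plasma membrane, had 436.1 CPM at 39 °C, against 240.2 CPM at 30 °C, with a log2 ratio of 0.86 (0.79 to 0.94). The polyamine transporter gene TPO2 had 0.60 (0.50 to 0.70). FUN34, named after its values were seen, had 0.60 from both strands and 1.56 (1.24 to 1.89) from its own strand, with 52.7% of its reads at 39 °C and 76.0% at 30 °C on the opposite strand.

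The 14 genes of the eisosome, a protein coat beneath plasma membrane furrows, went both ways, with 10 above the median of all features, 4 below and a median of 0.17. FMP45, a membrane protein of these furrows, was past 2-fold with 109.9 CPM at 39 °C, against 48.2 CPM at 30 °C, with a log2 ratio of 1.19 (1.03 to 1.35). The core coat gene LSP1 had 331.5 CPM at 39 °C, against 601.0 CPM at 30 °C, with a log2 ratio of -0.86 (-0.93 to -0.79), and its partner PIL1, named after its value was seen, had -0.83 (-0.93 to -0.74). PUN1 had 0.27 (0.21 to 0.34).

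**Figure D4:**
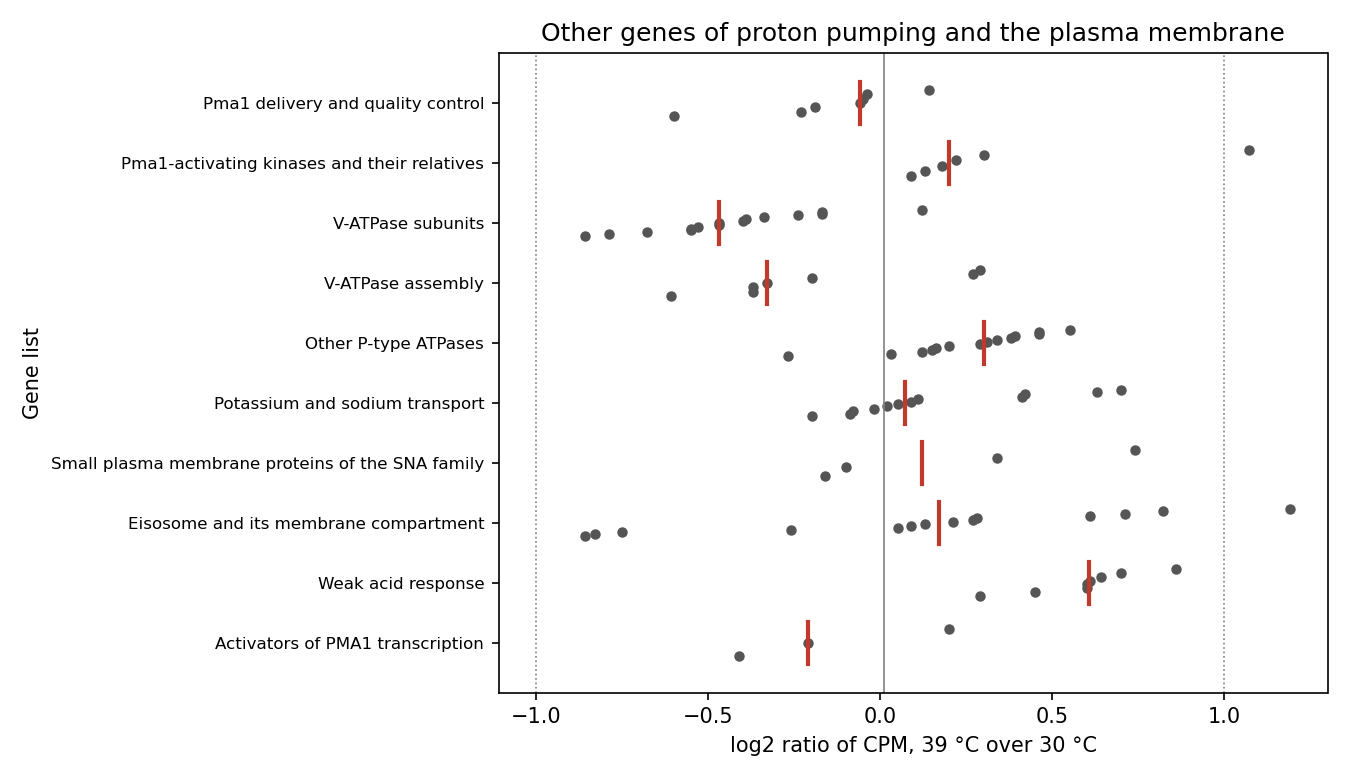
Log2 ratio of CPM, 39 °C over 30 °C, of each gene (grey points) in 10 lists around the 7 genes, with each list's median as a red bar, the median of all features (0.01) as a solid line and dotted lines at 2-fold. V-ATPase subunits lie mostly to the left with a median of -0.47, weak acid response genes to the right, and only HRK1 and FMP45 pass 2-fold.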

How the data were processed

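The count files as deposited give raw reads for each feature. The strand of a read is taken here from the title of its sample. The deposited names also carry AG for the minus-strand and TC for the plus-strand samples. Whether reads were selected by a base change was not examined, so opposite-strand shares rest on the titles alone. The submitters' processing notes name Bowtie 1.1.1, HTSeq and the builds sacCer3 and R64. Filters on mismatches, the strand setting, the annotation and duplicate removal are not stated there. The 5 HTSeq summary rows of each file stayed out of the totals. Reads in no feature made up 22.3% to 24.7% of a sample's counted reads and ambiguous reads 3.92% to 13.3%. In the authors' deposited table the log2 ratio, a probability score and the feature length in bases were used. The 2 columns per library whose names match no label were not used.

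Members were found by the gene name in the authors' table, and the members and gene lists were chosen with earlier results of these data known. Strand samples were summed per temperature and CPM taken over reads in features. Log2 ratios add 0.5 to each count. Intervals are the exact conditional binomial for a ratio, Poisson for a level, Clopper-Pearson for a share and, for a difference between 2 genes' ratios, the normal interval of a log odds ratio (10 pairs). A feature with at least 20 reads was tested for a 2-fold ratio. Own-strand reads come from the strand sample of the gene's systematic name, and own-strand ratios are scaled to that sample's total, whereas own-strand levels in RPKM are scaled to the total of both strands. Names and coordinates come from RefSeq R64, to which 6048 of 7126 features matched by locus tag. Named are the 7 genes, list genes past 2-fold, the 2 genes with most reads of each list, the 4 protein-coding genes with at least 50 reads nearest HSP30 by own-strand ratio, and the gene next below HSP30. The nearest RefSeq-matched counted feature on each side of the 7 genes and YOR268C were named after values were seen, as were the list genes so marked. The calculation was tested on simulated counts. Alternatives were TMM factors of edgeR 4.0.16, DESeq2 1.42.0 size factors, all counted reads as total, own-strand reads, a pseudocount of 5, and filters of 50 reads or none. No model test of edgeR or DESeq2 was run, as there are no replicates. Sequence comparisons and promoter motifs were not analysed here. Python 3.11.15 with scipy 1.17.1 was used.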

Additional observations from a re-analysis of the deposited data

How the results depend on the processing

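The log2 ratios of all 7 genes stayed inside their counting intervals under TMM factors, DESeq2 size factors, own-strand reads and a pseudocount of 5. With all counted reads as the total 6 of 7 did, and PMA1 came to -0.06, against -0.01 as reported. This setting moved the median of all features by -0.054. Of the list counts, the kinase list had 0 genes past 2-fold higher with own-strand reads, against 1 (HRK1), and the weak acid list 1, against 0 (FUN34). The count over all 90 genes stayed at 2 under each of the 4 alternatives tried for it. Levels in RPKM from own-strand reads alone, over the total of both strands, left the counting interval in 12 of 14 cases, since opposite-strand reads drop out. They were 1707.3 at 39 °C and 65.4 at 30 °C for HSP30, 404.0 and 367.4 for MRH1, and 650.3 and 251.6 for YRO2. In the same order of temperatures they were 283.2 and 287.7 for PMA1, 18.0 and 17.4 for PMA2, and 568.5 and 541.2 for PMP1. No paired analysis was possible because each temperature has 1 library and the strand samples are no replicates. PMA2, PMP1 and PMP2 rest on 504 to 930 reads a library, which gives the widest ratio intervals of the 7.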

Other observations

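The nearest counted feature with a RefSeq match on each side of the 7 genes was also read. Counted features without a match had no coordinates here and could lie nearer. None of the 7 overlaps another counted feature with a RefSeq match, and overlap with other features was not examined. HSP30 lies 552 bases from HTL1, a chromatin remodelling subunit gene, with a log2 ratio of -0.28 (-0.36 to -0.20), and 313 bases from YCR022C with 0.25 (-0.55 to 1.00), which had 8 own-strand reads at 39 °C and 15 at 30 °C. YRO2 lies between YBR053C with 0.08 (-0.02 to 0.18) and the splicing factor gene PRP6 with 0.11 (0.02 to 0.21). PST2, the nearest matched feature to the left of MRH1 at 3451 bases, had -1.16 (-1.26 to -1.07), and LYS14 to its right had 0.11 (0.02 to 0.20). PMA1 lies between LEU1 with 0.17 (0.07 to 0.27) and YGL007C-A with -0.27 (-1.11 to 0.50). YGL007C-A had 13 own-strand reads at 39 °C and 34 at 30 °C. PMA2 lies between EGD1 with -0.93 (-1.03 to -0.83) and YPL034W with 0.49 (0.30 to 0.67). PMP2 lies between EAF5 with -0.66 (-0.85 to -0.47) and GTT3 with 0.12 (-0.08 to 0.32).

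PMP1 has a close neighbour on its own strand. YCR024C-B begins 79 bases past its end and had 1252 own-strand reads at 39 °C and 2181 at 30 °C, a summed log2 ratio of -0.02 (-0.12 to 0.08). Its level was 713.4 RPKM at 39 °C and 721.9 at 30 °C, near that of PMP1. On the other side YCR025C had 0.40 (-0.24 to 1.02). It had 12 own-strand reads at 39 °C and 27 at 30 °C, with an own-strand log2 ratio of -0.41.

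The opposite-strand reads of HRK1 numbered 619 at 39 °C and 261 at 30 °C, a log2 ratio of 2.01 (1.80 to 2.22). YOR268C, 666 bases away on chromosome XV, had 422 opposite-strand reads at 39 °C and 63 at 30 °C, a log2 ratio of 3.50 (3.12 to 3.91). Both features lie on the minus strand, so the reads of both came from the plus-strand samples.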
